A study of Mus musculus with 35 samples.

Results

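The 7 genes described here belong to the lung mesenchyme, the connective tissue compartment that shapes the airways and alveoli. They are the transcription factor genes Tcf21, Foxf1, Tbx2, Tbx4 and Tbx5, the receptor gene Pdgfra and the Wnt ligand gene Wnt2. The genes were chosen by name for their known role, but with earlier results of these data known. Their counts and medians beside those of all genes are therefore not those of an independently drawn set. The genes were measured in whole mouse lung, and all 7 were found among the 22211 gene rows of the deposited table. All 7 were also among the 16786 genes tested, those at or above a normalised value of 1 in at least 3 libraries. The study compared the lung transcriptome at 2 times of day, with neutrophils present or depleted. Neutrophils are the short-lived white blood cells that patrol the lung vessels. PolyA RNA was profiled from the whole left lung lobe of male C57BL/6 mice aged 7 to 9 weeks, in 35 libraries.

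Control mice were wild type and received control IgG at 3 µg per g body weight. Anti-Ly6G mice were wild type and received the neutrophil-depleting antibody 1A8 at 3 µg per g. DT mice received diphtheria toxin (DT) at 10 ng per g and carried MRP8-Cre and iDTR-flox, so that the toxin receptor is placed in cells in which the MRP8 promoter drives Cre, chiefly neutrophils. Injections were subcutaneous on 2 consecutive days, and all lungs were taken at one clock time on the third day. Zeitgeber time (ZT) counts hours from lights-on: ZT4 mice lived in the normal light of the facility and ZT16 mice in inverted light cabinets, so time of day and housing cannot be told apart in any comparison. Each antibody-treated group, at either time, had 7 mice, of which July contributed 3 and September 4. DT mice numbered 4 at ZT4 and 3 at ZT16 and all came from April, so toxin, genotype and batch cannot be told apart and DT levels were not tested against the other treatments.

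As background, the mesenchyme of the developing lung tells the overlying epithelium where to grow and branch. T-box factors (Tbx), the forkhead factor Foxf1 and the basic helix-loop-helix factor Tcf21 act inside mesenchymal cells, while Wnt2 is secreted and Pdgfra receives platelet-derived growth factor A from the epithelium. In the adult lung these genes mark fibroblasts and their relatives, and Foxf1 is also made by the endothelium of the alveolar capillaries.

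RefSeq (GRCm38.p6) gave a promoter window, 250 bases before to 50 after the start, for Pdgfra, Tbx4, Wnt2 and Tcf21. Foxf1, Tbx2 and Tbx5 had no entry. The stretches before the start and outside annotated exons are printed for these 4 genes, so that a reader can see the sequence at the start of genes whose levels are described further on. Capitals mark CG dinucleotides, the bases that DNA methylation acts on. They lie at chr5:75152001-75152250 on the plus strand for Pdgfra, chr11:85896515-85896764 on the plus strand for Tbx4, chr6:18030586-18030695 on the minus strand for Wnt2 and chr10:22820175-22820393 on the minus strand for Tcf21. The Tbx4 window sits inside the gene as GENCODE M21 annotates it, at an internal start.
Pdgfra: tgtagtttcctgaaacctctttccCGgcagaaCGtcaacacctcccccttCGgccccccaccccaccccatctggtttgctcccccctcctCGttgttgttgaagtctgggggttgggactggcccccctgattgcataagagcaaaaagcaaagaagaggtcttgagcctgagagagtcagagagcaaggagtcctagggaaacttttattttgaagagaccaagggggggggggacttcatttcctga
Tbx4: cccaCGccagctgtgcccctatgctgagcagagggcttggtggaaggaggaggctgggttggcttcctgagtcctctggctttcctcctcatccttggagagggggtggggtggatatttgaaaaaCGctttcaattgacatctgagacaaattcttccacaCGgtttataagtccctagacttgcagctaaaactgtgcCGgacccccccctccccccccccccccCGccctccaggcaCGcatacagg
Wnt2: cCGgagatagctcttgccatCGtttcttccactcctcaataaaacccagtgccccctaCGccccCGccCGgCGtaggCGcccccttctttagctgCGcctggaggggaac
Tcf21: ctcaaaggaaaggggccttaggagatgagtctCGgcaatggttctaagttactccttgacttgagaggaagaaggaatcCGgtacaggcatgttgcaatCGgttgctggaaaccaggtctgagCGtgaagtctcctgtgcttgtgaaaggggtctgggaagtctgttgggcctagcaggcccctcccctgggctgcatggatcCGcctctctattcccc
The whole 300-base windows held 5 CG dinucleotides for Pdgfra, 8 for Tbx4, 27 for Wnt2 and 8 for Tcf21, against a median of 7 over 32851 mouse promoter windows of the same length. Their GC content was 51.0%, 59.0%, 65.7% and 53.3% in the same order, against a median of 52.7%. In all, 6 motifs were searched on both strands. They were the E-box CACGTG of clock factors, present in 7.15% of all windows, the ROR element AGGTCA in 16.3%, the D-box TTATGTAA in 0.938%, the T-box element GGTGTGA in 3.98%, the TCF/LEF element CTTTGA in 16.0% and the forkhead element TGTTTAC in 3.65%. The only match in the 4 windows was CTTTGA in Tcf21, read as TCAAAG 249 bases before the start. A match describes letters and not binding.

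Each value is the submitters' normalised expression value, for which read depth is unknown. Library sums ran from 962649 to 1033550, and 15351 to 15802 genes reached a value of 1. Cry1, a clock repressor gene, separated the times in all 35 libraries, with 11.2 to 18.4 at ZT4 and 35.8 to 51.3 at ZT16. Nr1d1, the clock repressor REV-ERB alpha, did so in control and anti-Ly6G mice, but its DT values overlapped, with 78.2 to 192 at ZT4 and 56.2 to 135 at ZT16. The summed level of 10 alveolar type 2 markers, the surfactant-making cells of the lung, was 27540 to 38170 in every library. Of the fibroblast, endothelial and epithelial marker lists, 2 had a marker with a group mean under 1. These were the adventitial fibroblast list, with 1 such marker in each group, and the airway list, with 1 in ZT4 anti-Ly6G and 1 in ZT4 DT mice. The summed level of 7 neutrophil markers was 21.0 to 56.2 in anti-Ly6G and 29.0 to 55.3 in DT libraries, and 23.8 to 731 in control libraries. The value of 731 came from ZT4 control September library 2, without which none of the 7 mesenchyme genes changed its call in the control time difference. Libraries are numbered here by their order in the table within group and batch.

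Over the 35 libraries Pdgfra lay between 187 and 461, Tbx5 between 39.5 and 64.5 and Wnt2 between 6.75 and 20.4. Pdgfra was lowest in ZT16 DT mice, 224 ± 34.6 (SD, n = 3). It then rose in order of group means through ZT4 anti-Ly6G (283 ± 18.7), ZT4 control (301 ± 33.9), ZT16 control (327 ± 40.8) and ZT16 anti-Ly6G (344 ± 48.4) to ZT4 DT (371 ± 70.4, n = 4), with n = 7 in the control and anti-Ly6G groups throughout. Only the lowest step of that order was larger than the larger SD of the neighbouring groups. Wnt2 ran from 9.79 ± 3.00 in ZT16 DT through 10.9 ± 1.77 in ZT16 control, 13.3 ± 1.97 in ZT16 anti-Ly6G, 14.4 ± 3.20 in ZT4 control and 14.9 ± 3.47 in ZT4 anti-Ly6G to 16.0 ± 0.770 in ZT4 DT. Its only step above the larger SD was from ZT16 control to ZT16 anti-Ly6G. Tbx5 was also lowest in ZT16 DT, at 40.1 ± 0.511, followed by ZT4 anti-Ly6G at 44.9 ± 3.58, ZT4 control at 48.3 ± 7.14, ZT16 control at 49.5 ± 3.21, ZT4 DT at 53.1 ± 3.56 and ZT16 anti-Ly6G at 53.4 ± 5.61. The steps above ZT16 DT and above ZT16 control exceeded the larger SD. Tbx4 means ran from 76.0 ± 7.32 in ZT16 DT to 102 ± 10.8 in ZT16 anti-Ly6G. Foxf1 ran from 192 ± 38.9 in ZT16 DT to 256 ± 5.71 in ZT4 DT, Tbx2 from 208 ± 29.5 in ZT16 control to 237 ± 21.0 in ZT16 anti-Ly6G, and Tcf21 from 76.0 ± 11.7 in ZT4 anti-Ly6G to 91.6 ± 20.1 in ZT4 control. No neighbouring groups of these 4 genes differed by more than the larger SD.

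**Figure D1:**
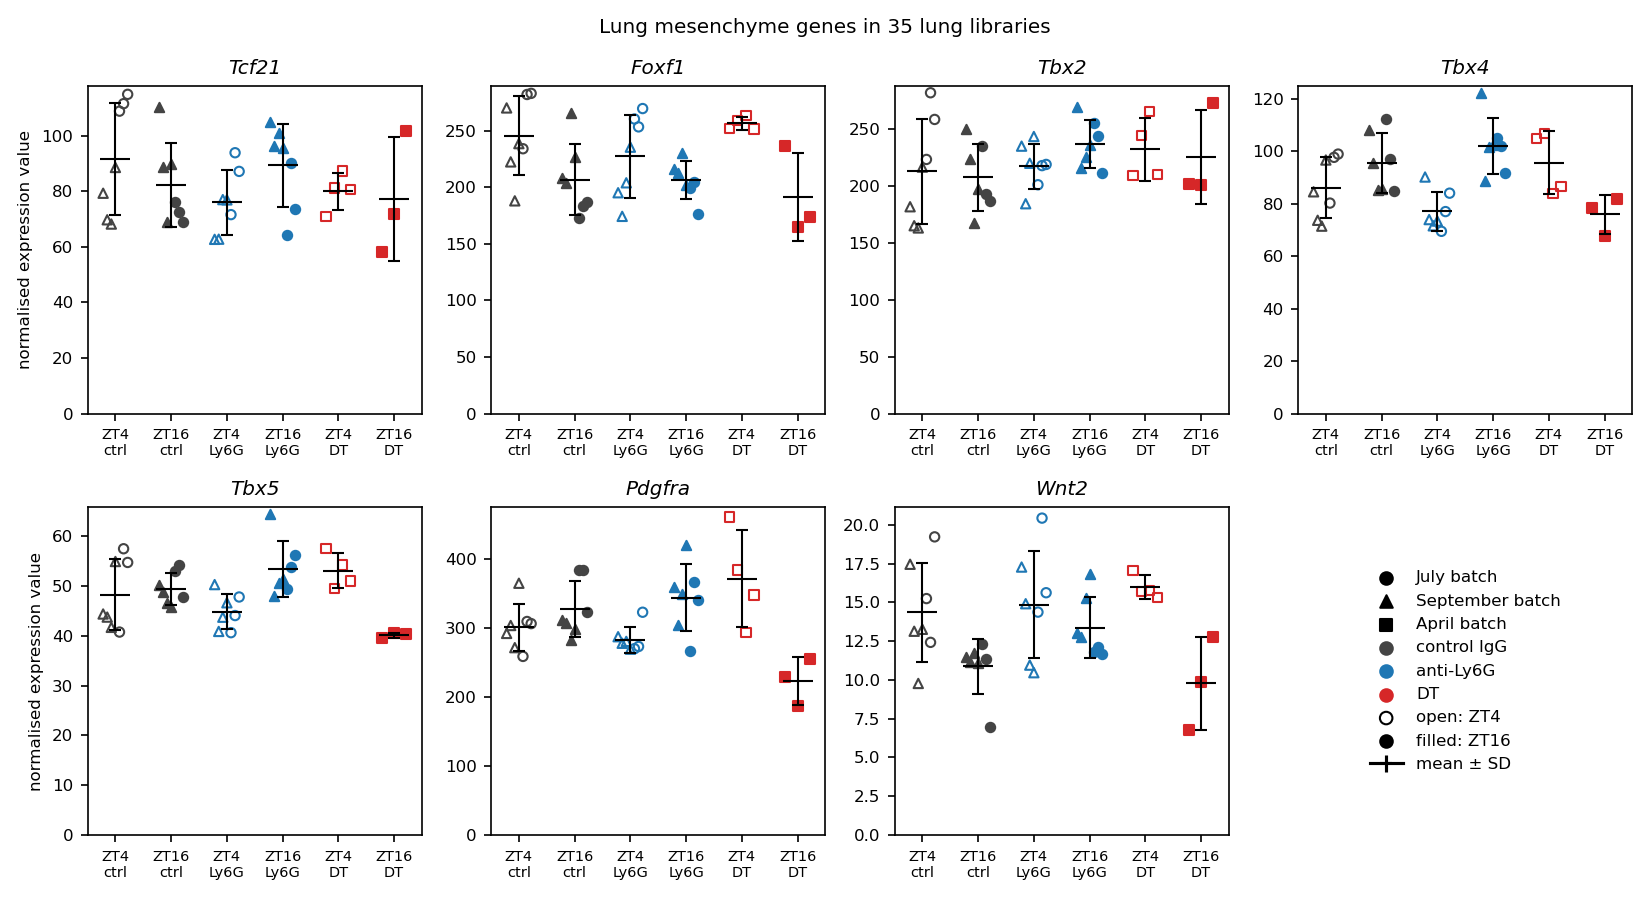
Normalised expression value (linear axis from 0, one axis per gene) of the 7 mesenchyme genes in the 35 libraries by group, with open symbols for ZT4, filled symbols for ZT16, the batch by symbol shape, and the mean ± SD as black lines. The 3 ZT16 DT libraries lie below all 4 ZT4 DT libraries for Foxf1, Tbx4, Tbx5, Pdgfra and Wnt2, while Tcf21 in control mice splits by batch at ZT4 but not at ZT16. The share of all genes whose times do not overlap was not counted, here or within July or September. Groups this small can separate by chance.

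In DT mice, Pdgfra, Wnt2, Foxf1 and Tbx5 were lower at ZT16 than at ZT4, and none of the 7 genes was called higher. The call was an adjusted p under 0.05 in limma on log2(value + 0.5), with Benjamini-Hochberg adjustment over all 16786 genes, and every difference below is on that log2 scale, ZT16 minus ZT4, with its standard error (SE). Over all genes 15.3% were called in DT mice, 9.98% as lower and 5.3% as higher. The median difference of the 7 genes was -0.40, against -0.009 for all genes tested. Of the called genes 34.7% were higher at ZT16, a share that was 51.8% with quantile normalisation and 49.2% with upper quartile scaling. The number of genes called, 2565, was 1190 without ZT4 DT library 1, 1559 without ZT16 DT library 1 and 1537 without ZT16 DT library 2. In bulk tissue, fewer cells of a type and less RNA per cell cannot be told apart.

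Pdgfra, the receptor of alveolar fibroblast precursors, was 461, 384, 293 and 348 in the 4 ZT4 DT libraries and 229, 187 and 255 in the 3 ZT16 DT libraries. The groups did not overlap, and differed on the log2 scale by -0.72 ± 0.132 (SE, adjusted p = 0.000464), a ZT16 level 0.606 times that at ZT4. Wnt2, a ligand that specifies the lung together with Wnt2b, was 17.1, 15.7, 15.8 and 15.3 at ZT4 and 6.75, 9.85 and 12.8 at ZT16. Its ZT4 libraries lay close together and its ZT16 libraries were spread widely below them. The log2 difference was -0.72 ± 0.206 (adjusted p = 0.0166), and the call was lost without ZT4 DT library 1 (-0.69, adjusted p = 0.0536) or ZT16 DT library 1 (-0.49, adjusted p = 0.157).

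Tbx5, which acts with Tbx4 in lung bud outgrowth and branching, was 57.5, 49.5, 54.2 and 51.0 at ZT4 in DT mice and 39.5, 40.5 and 40.4 at ZT16. The 3 ZT16 values were nearly equal and below every other group's lowest value. On the log2 scale they differed by -0.40 ± 0.102 (adjusted p = 0.00811). Tbx4 was 105, 107, 83.9 and 86.7 at ZT4 and 78.3, 67.8 and 81.9 at ZT16. These groups did not overlap either, but the difference of -0.33 ± 0.119 missed the threshold (adjusted p = 0.0582). It passed without ZT4 DT library 3 (-0.39, adjusted p = 0.0361) or library 4 (-0.37, adjusted p = 0.0449). It also passed under 2 of 10 other settings, among them the fit restricted to the DT libraries (adjusted p = 0.0486).

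Foxf1, a hedgehog-responsive factor of mesenchyme and capillary endothelium, was 252, 259, 263 and 252 at ZT4 in DT mice and 236, 165 and 174 at ZT16. One ZT16 library lay close below the ZT4 range and the other two far below it, a difference of -0.44 ± 0.142 (adjusted p = 0.034). This call was lost without any one of ZT4 DT libraries 1, 2 and 3 or ZT16 DT libraries 2 and 3, with adjusted p between 0.0597 and 0.173 and the difference nearest 0, -0.34, without ZT16 DT library 2. It was also lost under quantile normalisation (-0.33, adjusted p = 0.0793). Tcf21, a factor of lung fibroblasts, was 70.9 to 87.3 at ZT4 and 58.3, 71.7 and 102 at ZT16, so its ZT16 values spanned the ZT4 range (-0.08 ± 0.19, adjusted p = 0.81, 95% interval -0.47 to 0.30). Tbx2, which keeps lung mesenchyme dividing, was 209.5 to 266 at ZT4 and 201, 202 and 273 at ZT16 (-0.05 ± 0.145, adjusted p = 0.85, 95% interval -0.35 to 0.24), with a sign that turned under quantile normalisation.

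In anti-Ly6G mice the called genes were Tbx4, Tbx5 and Pdgfra, and all 3 were higher at ZT16. Over all genes 20.9% were called, 10.6% as higher and 10.4% as lower, and the median difference of the 7 genes was 0.23 against -0.016 for all genes. At ZT4 the lowest, median and highest Tbx4 values were 69.5, 74.0 and 90.3, and at ZT16 they were 88.8, 102 and 122 (n = 7 each). All but one of the ZT16 libraries lay above the highest ZT4 library. The log2 difference was 0.40 ± 0.0832 (adjusted p = 0.000703), a 1.32-fold higher level. By batch it was 0.37 ± 0.129 in July, which missed the threshold (adjusted p = 0.0652), and 0.42 ± 0.111 in September (adjusted p = 0.0147). Tbx5 had 40.6, 44.1 and 50.3 at ZT4 and 47.9, 51.5 and 64.5 at ZT16, with 5 of 7 ZT16 libraries above the ZT4 range. Its log2 difference was 0.25 ± 0.0711 (adjusted p = 0.0118). July alone gave 0.27 ± 0.11 and September alone 0.23 ± 0.0953, and neither passed.

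Pdgfra had 269, 278 and 323 at ZT4 in anti-Ly6G mice and 267, 349 and 420.5 at ZT16. Of the ZT16 libraries 5 lay above the ZT4 range and 1 below it. The log2 difference was 0.27 ± 0.0926 (adjusted p = 0.0341), split into 0.16 ± 0.135 for July (adjusted p = 0.498) and 0.35 ± 0.117 for September (adjusted p = 0.0513). The pooled call was lost without any one of 8 libraries, namely ZT4 September libraries 2 and 4, ZT4 July libraries 1 and 2, ZT16 September libraries 1, 3 and 4 and ZT16 July library 2, with adjusted p from 0.0536 to 0.0899. It was also lost under quantile normalisation (0.23, adjusted p = 0.0678). The other four genes missed the threshold, with Tcf21 at 0.23 ± 0.133, Tbx2 at 0.13 ± 0.101, Foxf1 at -0.13 ± 0.0993 and Wnt2 at -0.13 ± 0.144.

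In control mice none of the 7 genes was called over both batches, where 9.04% of all genes were, 4.65% as higher and 4.38% as lower. Wnt2 came nearest. Its lowest, median and highest values were 9.77, 13.3 and 19.2 at ZT4 and 6.98, 11.4 and 12.3 at ZT16 (-0.37 ± 0.144, adjusted p = 0.0983), and it passed without ZT4 control September library 3 (-0.46, adjusted p = 0.0439). Foxf1 had 188, 239 and 283 at ZT4 and 173, 204 and 266 at ZT16 (-0.25 ± 0.0993, adjusted p = 0.116). It passed without September library 3 of either time (ZT4: -0.31, adjusted p = 0.0482; ZT16: -0.31, adjusted p = 0.0427) and under quantile normalisation (-0.28, adjusted p = 0.0488). The differences of Tcf21 (-0.14 ± 0.133), Tbx2 (-0.02 ± 0.101), Tbx4 (0.15 ± 0.0832), Tbx5 (0.05 ± 0.0711) and Pdgfra (0.12 ± 0.0926) were also below the threshold.

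Taken apart by batch, Tcf21 and Foxf1 had calls in control and anti-Ly6G mice that they lacked over both batches. In the July control mice Tcf21 was 109, 112 and 115 at ZT4 and 76.1, 72.7 and 68.9 at ZT16, without overlap. The log2 difference was -0.62 ± 0.151 (adjusted p = 0.0183), where 2.95% of all genes were called, 1.32% as lower and 1.63% as higher. In the September control mice Tcf21 was 79.3, 69.8, 68.2 and 88.6 at ZT4 and 110.4, 88.8, 69.1 and 89.8 at ZT16, with 3 of the 4 ZT16 libraries above the ZT4 range (0.21 ± 0.131, adjusted p = 0.396), where 3.78% of all genes were called, 1.81% as higher and 1.97% as lower. The July call was lost without any one of ZT4 July libraries 1, 2 and 3 or ZT16 July libraries 2 and 3, with adjusted p from 0.0504 to 0.0828, and the difference stayed between -0.66 and -0.58. In September anti-Ly6G mice Tcf21 was 62.7, 62.8, 77.04 and 76.9 at ZT4 and 105, 96.3, 101 and 95.5 at ZT16, again without overlap but in the other direction (0.51 ± 0.131, adjusted p = 0.0114). There 9.73% of all genes were called, 5.9% as higher and 3.82% as lower. That call was lost without ZT4 September library 2 (0.46, adjusted p = 0.0509). In July anti-Ly6G mice the Tcf21 values overlapped, 71.6, 93.9 and 87.2 at ZT4 against 64.3, 90.1 and 73.8 at ZT16 (-0.15 ± 0.151, adjusted p = 0.588).

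Foxf1 in the July control mice was 234, 282 and 283 at ZT4 and 173, 183 and 187 at ZT16, without overlap (-0.55 ± 0.118, adjusted p = 0.0066). In the July anti-Ly6G mice it was 260.4, 253 and 269.6 at ZT4 and 199.7, 205 and 176 at ZT16, also without overlap (-0.43 ± 0.118, adjusted p = 0.0209), where 8.33% of all genes were called, 4.63% as lower and 3.7% as higher. This second call was lost without ZT4 July library 1 (-0.44, adjusted p = 0.06), ZT4 July library 3 (-0.41, adjusted p = 0.062) or ZT16 July library 3 (-0.37, adjusted p = 0.0654). In September the Foxf1 difference was -0.02 ± 0.102 in control and 0.10 ± 0.102 in anti-Ly6G mice. Wnt2 had no overlap between times in either July treatment, with 15.2, 12.4 and 19.2 against 12.3, 11.4 and 6.98 in control mice and 14.4, 20.4 and 15.6 against 11.8, 12.1 and 11.7 in anti-Ly6G mice. Neither passed (-0.61 ± 0.208, adjusted p = 0.112, and -0.47 ± 0.208, adjusted p = 0.158). In September the Wnt2 groups overlapped in both treatments. Pdgfra did not overlap in the July control mice either, with 259, 309 and 306 at ZT4 against 385, 384 and 323 at ZT16. It was higher at ZT16 there (0.32 ± 0.135) but not called (adjusted p = 0.212). In the September control mice the Pdgfra groups overlapped (-0.03 ± 0.117, adjusted p = 0.922). The Tbx4 call in September anti-Ly6G mice (adjusted p = 0.0147) was lost without ZT16 September library 1 (0.34, adjusted p = 0.0881).

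The difference between batches was itself tested as an interaction. September minus July in the time difference of control mice was 0.84 ± 0.2 for Tcf21 (unadjusted p = 0.000216, adjusted p = 0.195), 0.53 ± 0.156 for Foxf1 (adjusted p = 0.363) and 0.52 ± 0.182 for Tbx2 (adjusted p = 0.485). For Wnt2 in control mice it was 0.41 ± 0.275 (adjusted p = 0.742) and for Pdgfra -0.35 ± 0.178 (adjusted p = 0.633). In anti-Ly6G mice it was 0.66 ± 0.2 for Tcf21 and 0.53 ± 0.156 for Foxf1 (adjusted p = 0.436 for both). Wnt2 had 0.60 ± 0.275 (adjusted p = 0.547) and Pdgfra 0.19 ± 0.178 (adjusted p = 0.832) in anti-Ly6G mice. None passed the adjustment. By limma 0 of 16786 genes (0.0%) were called in control mice, with 1363 at an unadjusted p under 0.05, and 1 gene (0.00596%) in anti-Ly6G mice, with 1456. Without ZT16 anti-Ly6G July library 3 the latter count was 220, none of them among the 7 genes. Tbx4 and Tbx5 had the same sign in both batches of each treatment, and their batch differences were between -0.03 and 0.12.

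**Figure D2:**
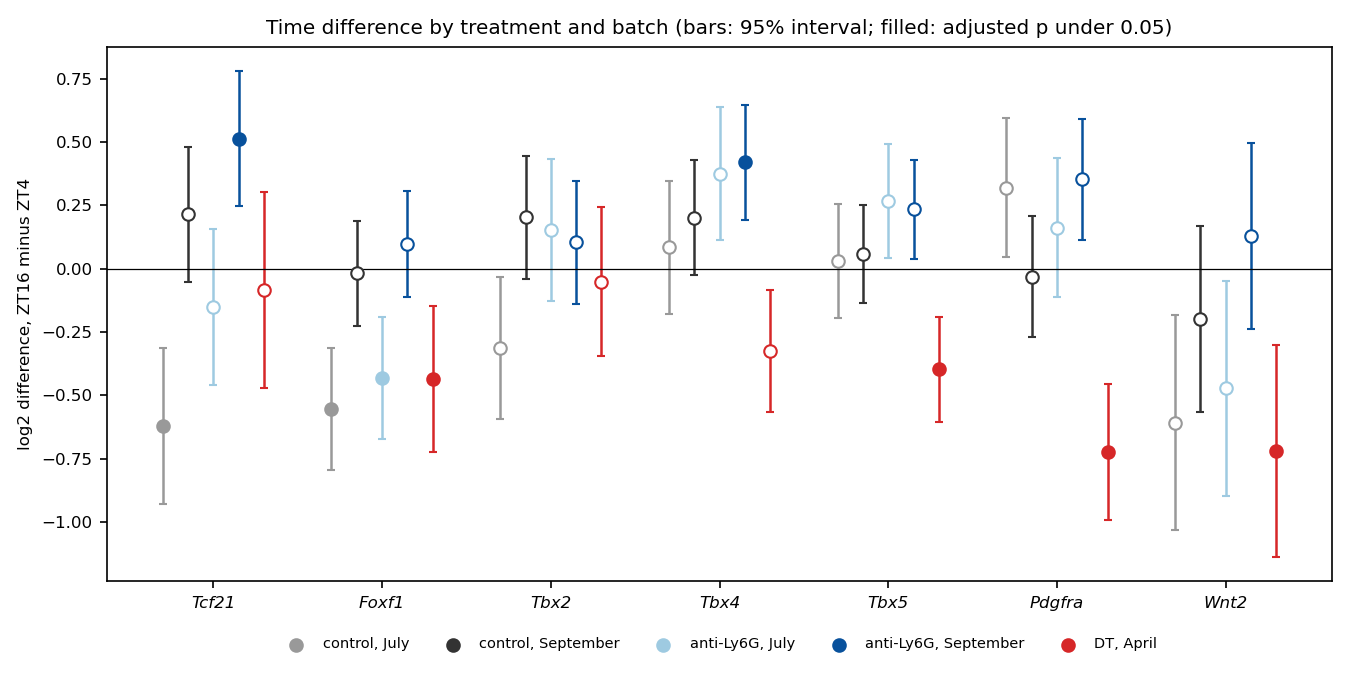
Time difference of the 7 genes (vertical axis: log2 difference, ZT16 minus ZT4) in each treatment and batch, with bars for the 95% interval of the fit and filled points for an adjusted p under 0.05. Tcf21, Foxf1, Wnt2 and, by less, Tbx4 lie lower in July than in September in both antibody treatments. The DT points of Tbx4, Tbx5 and Pdgfra lie below those of the other treatments.

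Time differences were compared between treatments as interactions, in which the DT batch enters only through its own ZT16 and ZT4 libraries. A constant batch offset cancels there, but a time difference that varies with batch or genotype does not. Toxin, genotype and batch therefore cannot be told apart in the DT interactions either. Pdgfra, Tbx5 and Tbx4 had a lower time difference in DT mice than in both other treatments. DT minus control was -0.84 ± 0.161 for Pdgfra (adjusted p = 0.0013), -0.44 ± 0.124 for Tbx5 (adjusted p = 0.0167) and -0.48 ± 0.145 for Tbx4 (adjusted p = 0.0263), where 13.8% of all genes were called, 8.86% as lower and 4.93% as higher. Of the called genes 35.7% were higher, a share that was 52.6% under quantile normalisation and 48.7% under upper quartile scaling. The Tbx4 call was lost without ZT4 DT library 1 (adjusted p = 0.0757), ZT4 DT library 2 (adjusted p = 0.0671) or ZT16 DT library 2 (-0.40, adjusted p = 0.101), and under quantile normalisation (-0.38, adjusted p = 0.0753). The Tbx5 call was lost without ZT4 DT library 1 (-0.40, adjusted p = 0.0527). The Wnt2 and Foxf1 differences, -0.35 ± 0.251 (adjusted p = 0.373) and -0.19 ± 0.173 (adjusted p = 0.493), missed the threshold.

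DT minus anti-Ly6G was -0.99 ± 0.161 for Pdgfra (adjusted p = 9.24e-05), -0.73 ± 0.145 for Tbx4 (adjusted p = 0.000794) and -0.64 ± 0.124 for Tbx5 (adjusted p = 0.000558). Over all genes 19.1% were called, 11.6% as lower and 7.44% as higher. Of these calls 39.0% were higher, against 50.5% under quantile normalisation and 50.1% under upper quartile scaling. The Wnt2 difference was -0.59 ± 0.251 (adjusted p = 0.0935), and passed without ZT16 DT library 3 (-0.80, adjusted p = 0.0372). Both interactions share the DT libraries. Anti-Ly6G minus control was not called for any gene (0.0% of 16786 in limma, 1007 at an unadjusted p under 0.05, and 0 in limma without trend). Among the 7 genes it was between 0.12 and 0.37, with Tbx4 at 0.25 ± 0.118 (adjusted p = 0.812). The calls for Tbx4, Tbx5 and Pdgfra in anti-Ly6G mice are therefore not shown to be particular to the antibody.

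The antibody itself was tested at each time, anti-Ly6G minus control. No gene was called at ZT4 or at ZT16 (0.0% of 16786 at each), with 1185 and 701 genes at an unadjusted p under 0.05 in limma and 0 called in limma without trend. At ZT4 the 7 genes lay between -0.25 (Tcf21, 95% interval -0.52 to 0.02) and 0.05 (Tbx2, -0.15 to 0.26). At ZT16 they lay between 0.00 (Foxf1, -0.20 to 0.21) and 0.29 (Wnt2, -0.00 to 0.58). A p that misses the threshold does not show that the antibody left these genes unchanged.

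Other measures moved with time in the DT libraries. The 10 highest genes held 9.03% to 10.1% of the summed values at ZT16 and 6.87% to 7.98% at ZT4, and mitochondrially encoded genes held 3.58% to 4.54% and 2.42% to 3.07%. Beside the marker counts that follow, 9.98% of all genes were called as lower in DT mice and 5.3% as higher. Of 12 endothelial markers 9 fell and none rose, with a summed level of 3002 to 3213 at ZT16 and 4101 to 4849 at ZT4. Of 8 airway epithelial markers 5 rose and none fell, with 37050 to 45800 at ZT16 and 24980 to 32410 at ZT4. Of 10 alveolar type 2 markers 4 fell and none rose, but their summed levels overlapped, with 28220 to 31800 at ZT16 and 27580 to 33610 at ZT4. Of 17 alveolar fibroblast markers 8 fell and 3 rose, summing to 6169 to 7565 at ZT16 and 7223 to 7622 at ZT4. Of 10 pericyte markers, for cells that wrap capillaries, 3 fell and none rose, with 683.9 to 850.8 and 938.8 to 995.9. Among the other mesenchymal lists, of 11 tested adventitial fibroblast markers 2 rose and none fell (median 0.002), and of 8 smooth muscle markers none was called (median 0.21). Of 8 collagen and matrix genes 2 fell and none rose (median -0.21). The summed level of the 7 mesenchyme genes was 743 to 939 at ZT16 and 1043 to 1173 at ZT4. The part of these measures in the time differences of the 7 genes was not tested.

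The time difference also moved with transcript length in DT mice. The median over all genes was 0.11 for genes whose longest annotated transcript was under 2000 bases (4074 genes), 0.04 from 2000 to 3000, -0.02 from 3000 to 4000, -0.08 from 4000 to 6000 and -0.16 at 6000 or more (2156 genes). In control mice the medians ran the other way, from -0.04 to 0.05, and in anti-Ly6G mice from -0.06 to 0.03. Pdgfra has the longest transcript of the 7 genes, 6834 bases, and its DT difference of -0.72 was further from 0 than the -0.16 of its length class. Wnt2, at 2255 bases, had the same difference in a class whose median was above 0. Tcf21, the shortest at 1788 bases, and Tbx2, at 3626, also lay below their class medians, at -0.08 against 0.11 and -0.05 against -0.02. The part of length in the differences was not tested.

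**Figure D3:**
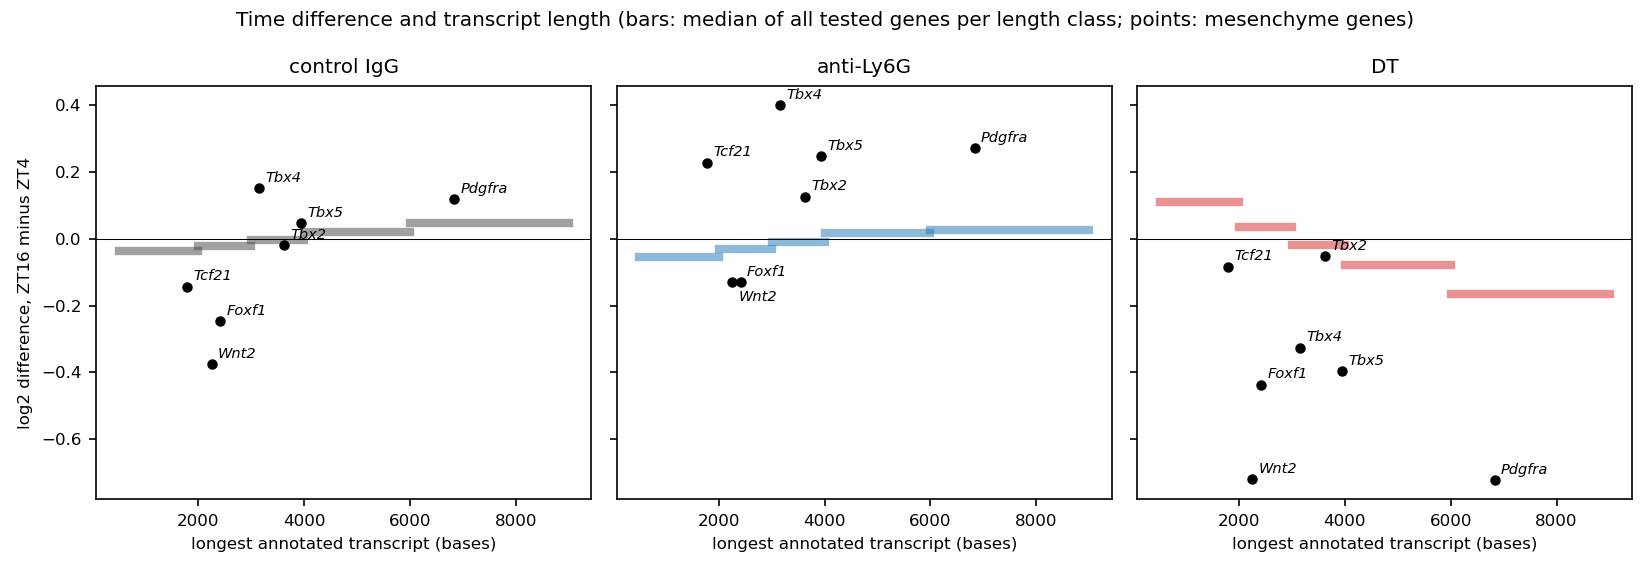
Time difference (vertical axis: log2, ZT16 minus ZT4) against the length of the longest annotated transcript (horizontal axis: bases) for control, anti-Ly6G and DT mice, with points for the 7 mesenchyme genes and bars for the median of all tested genes in each length class. The bars fall from 0.11 to -0.16 in DT mice and rise slightly in the other treatments, while all 7 genes lie below the bar of their length class in DT mice, Tbx2 by the least.

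Among 34 further mesenchyme transcription factors, 30 were tested. In control, anti-Ly6G and DT mice 1, 3 and 2 of them rose and 1, 2 and 6 fell, with medians of -0.01, 0.04 and -0.14 against -0.002, -0.016 and -0.009 for all genes. Over all genes 4.65%, 10.6% and 5.3% were called as higher in control, anti-Ly6G and DT mice, and 4.38%, 10.4% and 9.98% as lower, so the counts in control and anti-Ly6G mice are not above the background. Tbx3, the closest relative of Tbx2, rose by 0.36 ± 0.0827 in anti-Ly6G mice (adjusted p = 0.00185) and fell in DT mice (-0.36 ± 0.118, adjusted p = 0.0365), as Tbx4 and Tbx5 did in sign. Its DT difference was below that of control mice (-0.45, adjusted p = 0.0329) and of anti-Ly6G mice (-0.72, adjusted p = 0.000836). Foxf2, the relative of Foxf1, was called in no treatment (0.05, 0.20 and -0.16). Zeb1 and Tcf4, factors of mesenchymal state, both fell by 0.51 in DT mice (adjusted p = 7.42e-05 and 0.000166). Tbx1 rose by 0.61 in DT mice (adjusted p = 0.00151), and Plagl1 fell by 0.55 in anti-Ly6G mice (adjusted p = 0.00147).

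In the family of Pdgfra, the other receptor and the ligands, 2 of 6 genes fell in control, 2 in anti-Ly6G and 3 in DT mice, where 4.38%, 10.4% and 9.98% of all genes fell, and none rose. Pdgfrb, the receptor of pericytes and smooth muscle, fell by 0.65 in DT mice (adjusted p = 0.000191) and by 0.29 in control mice (adjusted p = 0.0141). Pdgfb, its endothelial ligand, fell in every treatment, by 0.37, 0.36 and 0.63 in control, anti-Ly6G and DT mice (adjusted p = 0.0179, 0.00979 and 0.00363). Pdgfd fell by 0.79 in DT mice (adjusted p = 0.000157) and Pdgfrl by 0.44 in anti-Ly6G mice (adjusted p = 0.033). Pdgfa, the main ligand of Pdgfra, was not called, at -0.11, -0.25 (adjusted p = 0.0521) and 0.11.

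Of 40 other Wnt ligands, receptors and modulators 36 were tested. In control, anti-Ly6G and DT mice 5, 8 and 2 rose, beside 4.65%, 10.6% and 5.3% of all genes, and 2, 6 and 7 fell, beside 4.38%, 10.4% and 9.98%. The 2 that rose in DT mice and the 2 that fell in control mice are near the background. Lrp5, a Wnt co-receptor, rose by 0.27 in control (adjusted p = 0.014) and 0.56 in anti-Ly6G mice (adjusted p = 9.75e-07) and fell by 0.33 in DT mice (adjusted p = 0.0295). Ryk, another Wnt receptor, rose by 0.21 and 0.34 in control and anti-Ly6G mice (adjusted p = 0.00207 and 1.14e-06). Lgr4, a receptor for R-spondins, rose by 0.45 in anti-Ly6G mice (adjusted p = 0.000814). Wnt10b fell by 0.50, 0.89 and 0.80 in the 3 treatments (adjusted p = 0.0426, 0.00014 and 0.0172). Wnt2b, which specifies the lung together with Wnt2, was not called (0.29, 0.43 and -0.25), nor was the mesenchymal ligand Wnt5a (0.17, 0.10 and 0.10).

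Of 12 genes that canonical Wnt signalling is known to induce, 4 rose in anti-Ly6G mice and none fell, 1 rose and 1 fell in control mice, and none was called in DT mice. Of all genes 10.6% rose in anti-Ly6G mice, and 9.04% and 15.3% were called in control and DT mice. The 4 were Nkd2 (1.09 ± 0.122, adjusted p = 5.63e-08), Nkd1 (0.51 ± 0.0858, adjusted p = 6.05e-05), Axin2 (0.54 ± 0.104, adjusted p = 0.00034) and Apcdd1 (0.56 ± 0.122, adjusted p = 0.00128). Nkd1, Nkd2, Axin2 and Apcdd1 encode feedback inhibitors of the pathway. In control mice Nkd2 rose by 0.70 (adjusted p = 0.000193) and Ccnd1, named here after its value was seen, fell by 0.29 (adjusted p = 0.0345). The medians of the list were 0.12, 0.14 and -0.19 in control, anti-Ly6G and DT mice. The ligand Wnt2 itself was not called in anti-Ly6G mice.

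The Hedgehog pathway lies upstream of Foxf1 in lung mesenchyme. Of 13 tested genes of 14, none rose and 1 fell in control, 1 rose and 2 fell in anti-Ly6G and none rose and 1 fell in DT mice. With 9.04%, 20.9% and 15.3% of all genes called in these treatments, the counts are near or below the background. Gli1, its effector and target, fell by 0.41 in control (adjusted p = 0.00659) and by 0.49 in anti-Ly6G mice (adjusted p = 0.000638), and was at -0.32 in DT mice (adjusted p = 0.127). The epithelial ligand Shh fell by 0.27 in anti-Ly6G mice (adjusted p = 0.0287), where the co-receptor Boc rose by 0.23 (adjusted p = 0.011). Sufu, an inhibitor, fell by 0.23 in DT mice (adjusted p = 0.042). Ptch1, the receptor and a second target, was called in no treatment (-0.04, 0.02 and -0.22).

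FGF and BMP signals pass between mesenchyme and epithelium, and Fgf10 is a target of Tbx4 and Tbx5 in the lung bud. Of 25 tested genes of 28, 3 rose and 1 fell in control, 2 rose and 4 fell in anti-Ly6G, and none rose and 7 fell in DT mice, where 9.98% of all genes fell and the list's median was -0.18. The counts in control and anti-Ly6G mice stand beside 9.04% and 20.9% of all genes called. Fgf10 fell in DT mice (-0.45 ± 0.13, adjusted p = 0.0177), and its time difference was lower there than in control (-0.63, adjusted p = 0.00932) and anti-Ly6G mice (-0.53, adjusted p = 0.0175). Bmp6 fell by 0.79 in DT mice (adjusted p = 7.56e-06). Bmpr2, the main BMP receptor of vessels, rose by 0.30 in control (adjusted p = 0.00796) and fell by 0.43 in DT mice (adjusted p = 0.006). Fgfr1 fell by 0.18 in control (adjusted p = 0.0143) and by 0.26 in DT mice (adjusted p = 0.00923), and Fgfr2 by 0.32 in anti-Ly6G mice (adjusted p = 0.000638). Bmp4 was not called (0.00, 0.22 and -0.08).

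**Figure D4:**
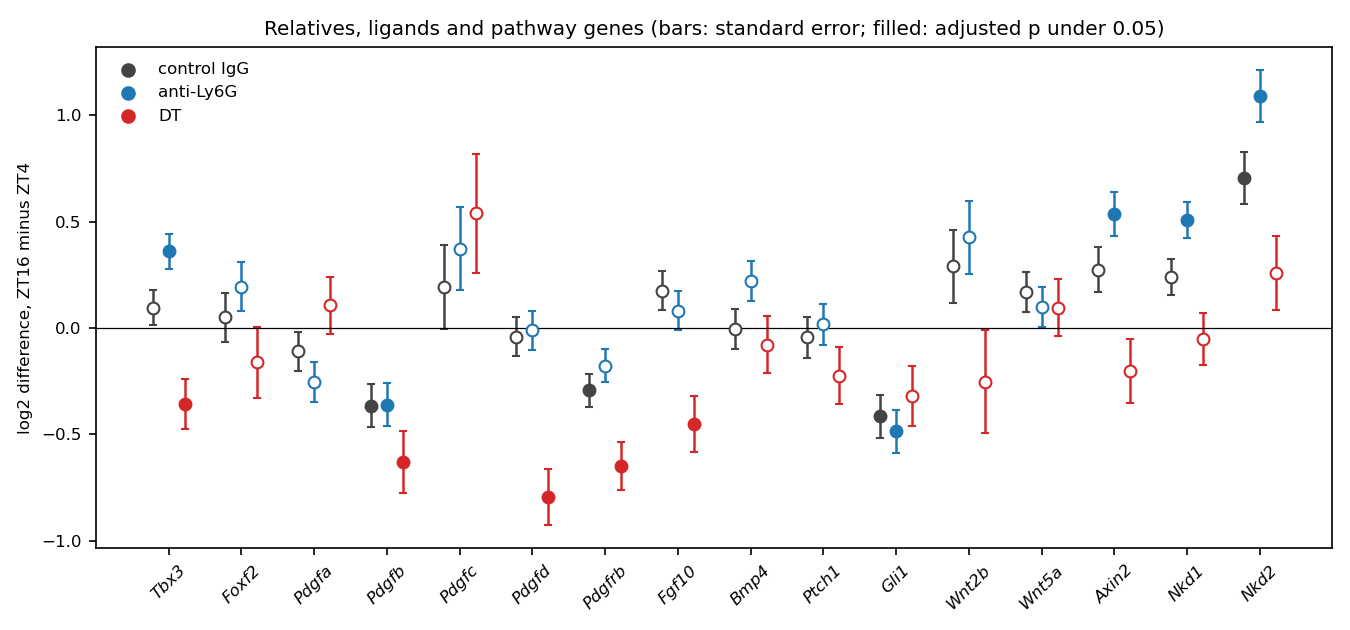
Time difference (vertical axis: log2, ZT16 minus ZT4) of 16 relatives, ligands and pathway genes of the 7 mesenchyme genes in control, anti-Ly6G and DT mice, with bars for the standard error and filled points for an adjusted p under 0.05. Tbx3 rises in anti-Ly6G and falls in DT mice, Pdgfb falls in all 3 treatments, and Fgf10, Pdgfd and Pdgfrb have their lowest points in DT mice.

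For 6 of the 7 genes, the 2 genes whose centred log2 values stayed closest over the 35 libraries are given, found by the root mean square difference. The closest pair was Tbx5 with Wasf2 (0.10, against 0.17 for the variation of Tbx5 itself). Tbx4 was followed by Plpp3 (0.10, against 0.21) and Epb41l2 (0.12), of which Plpp3 left 22.9% of the variation of Tbx4. In anti-Ly6G mice both rose by 0.37 (adjusted p = 0.000352 and 6.91e-05). In DT mice Epb41l2 fell by 0.35 (adjusted p = 0.00813), while Plpp3 was at -0.20 (adjusted p = 0.19). Pdgfra was followed by Prelp (0.13, against 0.25) and Spon1 (0.14), both genes of extracellular matrix proteins. Prelp fell by 0.77 (adjusted p = 3.16e-05) and Spon1 by 0.49 (adjusted p = 0.00148) in DT mice. The nearest genes to Wnt2 were Adcy8 (0.21, against 0.34) and Sh3bp5, to Foxf1 Epha2 (0.15, against 0.22) and Plaur, and to Tbx2 Scarf2 (0.13, against 0.20) and Nfix. These pairs share library and normalisation, and were picked for their likeness.

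In GENCODE M21 (GRCm38) Tbx2 (chromosome 11, 85832551 to 85841948) and Tbx4 (85886422 to 85916097) lie side by side on the plus strand. Tbx5 spans 119832668 to 119885219 and Pdgfra 75152292 to 75198215 on the plus strand of chromosome 5. Foxf1 spans 121084386 to 121088144 on the plus strand of chromosome 8, Tcf21 22817281 to 22820174 on the minus strand of chromosome 10, and Wnt2 17988940 to 18030585 on the minus strand of chromosome 6. Fendrr, a long noncoding RNA that starts 1276 bases from Foxf1 on the other strand, was not called in any treatment (0.03, -0.05 and 0.16), July included (-0.06 in control and -0.11 in anti-Ly6G mice). The noncoding 2610027K06Rik, 328 bases from the start of Tbx2, and Gm43050, 748 bases from that of Tbx5, were not called either. Exons of Pdgfra share 456 bases with the antisense gene Gm42802 and 166 with Gm42803 on the other strand, and those of Foxf1 share 98 with Gm27530. No source used here says whether the counting used strand, so reads of these partners cannot be told apart from those of Pdgfra and Foxf1. Gm42803 has its own gene row, which was not among those tested. Mir7025, a microRNA gene on the same strand as Pdgfra, shares 30 exon bases with it.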

How the data were processed

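The authors deposited 1 table of normalised signal values per gene for 35 lung libraries (no zeros, lowest value 0.00638). The submitters' processing notes name RSEM 1.2.20, kallisto 0.43.1, cutadapt, CASAVA 1.8.2 and the build GRCm38 without their roles. The sources used here do not give how the values were normalised or whether batch was adjusted, so read depth is unknown, no counting intervals are given and no count model was run. RNA was amplified with the Ovation Single Cell kit per the labels' protocols, which can favour some transcripts. Table columns name group and batch, and each library is 1 mouse per the design text.

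Values were analysed as log2(value + 0.5), which understates changes of low genes, for the 16786 genes that reached 1 in 3 or more libraries (5425 removed). limma 3.58.1 with trend (R 4.3.3) fitted 6 group means and a September term (28 residual degrees of freedom), or 10 group-by-batch means (25) for batches apart, over all 35 libraries. Tests were two-sided, with Benjamini-Hochberg adjustment over all genes tested and a threshold of 0.05. On simulated data of 16786 genes, log2 changes of 0.4 were recovered for 62% in control, 68% in anti-Ly6G and 39% in DT mice, and changes of 0.8 for 81%, 84% and 67%. The simulation changed 100 genes at each size, far fewer than were called in the data. Its noise was independent between genes and it held no batch effect. These shares are therefore not recovery rates for the real tests. Positions are from GENCODE M21.

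The 7 genes, the gene lists and the tests were chosen with earlier results of these data known. The text names all 7 genes, up to 4 genes of smallest p per pathway list among those called, fixed relatives whatever their values, the 2 most alike genes (not reported here for Tcf21), and genes that overlap or adjoin one of the 7. Other pseudocounts (0.1 and 1), filters (none, or 5 in 3 libraries), scalings, limma without trend, array weights, no batch term, separate fits and leaving out each library were tried. A value-by-value comparison found no library identical to another.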

Additional observations from a re-analysis of the deposited data

Results flagged for a closer look

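The time difference of 3 genes differed between treatments by the interaction test. DT minus control was -0.48 for Tbx4, -0.44 for Tbx5 and -0.84 for Pdgfra on the log2 scale. DT minus anti-Ly6G was -0.73 for Tbx4, -0.64 for Tbx5 and -0.99 for Pdgfra. In all, 35 such interactions were checked over the 7 genes, and the DT mice are of another genotype and batch.

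Single libraries stood apart from their group in 2 of 35 gene and group combinations checked. Chance flags about 1 in 20 combinations, so 2 of 35 is near what chance alone gives. Pdgfra was 322.9 in ZT4 anti-Ly6G July library 3, at a gap of 0.663 of the group's range, which is past Dixon's critical value for 7 libraries. Wnt2 was 6.978 in ZT16 control July library 3, at a gap of 0.778 of the range.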

How the results depend on the processing

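Each result was recomputed under up to 10 other settings and with each library left out in turn. Values below are log2 differences or numbers of the 7 genes called. Quantile normalisation called 1 gene in control mice (Foxf1) where none was called before, and turned the sign of Tbx2 in DT mice (0.0588) and in DT minus control (0.119) and of Tbx4 in September minus July of anti-Ly6G mice (-0.0097). Upper quartile scaling called 2 genes in July anti-Ly6G mice instead of 1 and turned Tbx2 in DT minus control (0.0076). Array weights also called 2 there, and turned Tcf21 (0.0314) and Tbx2 (0.0023) in DT mice, Tbx2 in DT minus control (0.0124) and Tbx4 in September minus July of anti-Ly6G mice (-0.0021). None of the turned values passed the test, and the cause was not tested. With 1 library left out, the number of the 7 genes called ranged from 0 to 2 in control mice (Wnt2 and Foxf1 without ZT4 September library 3), 2 to 5 in DT mice (2 without ZT4 DT library 1), 1 to 3 in DT minus control (1 without ZT4 DT library 1), 1 to 2 in July control, 0 to 1 in July anti-Ly6G and 1 to 3 in September anti-Ly6G mice. Values near 0 that turned sign without 1 library had these ranges: Tbx2 -0.0752 to 0.0468 in control mice, Tbx4 -0.0177 to 0.184 and Tbx5 -0.12 to 0.125 in July control mice, Foxf1 -0.111 to 0.0633 and Pdgfra -0.0891 to 0.0527 in September control mice. Further ranges were Tcf21 -0.301 to 0.0989 and Tbx2 -0.197 to 0.0226 in DT mice, Tcf21 -0.157 to 0.242 and Tbx2 -0.177 to 0.0417 in DT minus control, Tbx5 -0.068 to 0.178 in September minus July of control mice. The last were Tbx2 -0.132 to 0.00825, Tbx4 -0.0365 to 0.121 and Tbx5 -0.123 to 0.0259 in September minus July of anti-Ly6G mice, Tbx2 -0.000906 to 0.118 and Wnt2 -0.0400 to 0.121 in anti-Ly6G minus control at ZT4, Foxf1 -0.0425 to 0.0711 in the same at ZT16. None of these values passed the test. Pdgfra and Tbx5 in DT mice and Tbx4 and Tbx5 in anti-Ly6G mice kept their call under every setting and every left-out library, as did Foxf1 in July control mice, Pdgfra in DT minus control and the 3 DT minus anti-Ly6G calls. Over all genes, the fit restricted to the groups compared called 318 instead of 634 in September control and 442 instead of 1398 in July anti-Ly6G mice, and array weights 13 instead of 1 in September minus July of anti-Ly6G mice. Leaving out 1 library took these all-gene counts as low as 218 of 495 in July control (ZT4 July library 1), 309 of 634 in September control (ZT4 September library 1), 607 of 1398 in July anti-Ly6G (ZT4 July library 1), 777 of 1633 in September anti-Ly6G (ZT16 September library 1), and, without ZT4 DT library 1, 1164 of 2314 in DT minus control and 2122 of 3202 in DT minus anti-Ly6G. No paired analysis was possible because the table's columns carry no replicate numbers that match the labels. DESeq2 and TMM were not run, as the table holds no counts. Depth is unknown, so its part in the spread was not tested.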
